A study of Drosophila melanogaster with 11 samples.

Results

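The serpins of Drosophila melanogaster and the immune proteases they hold in check were followed through 11 RNA-seq libraries of flies under mitochondrial stress. Every gene was taken whose symbol begins with Spn and a number, together with nec, SPE, psh, grass, MP1, Sp7 and modSP. This choice used names only and gave 34 of the 15603 genes listed in each of 3 tables, of which 28 are serpins and 6 are proteases. Each value is an FPKM, the fragments counted for a transcript after scaling to its length and to the size of the library, so that levels may be compared between genes of one library.

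Serpins are secreted or intracellular proteins that present a bait loop to a serine protease and trap the enzyme irreversibly when the loop is cut. In insect hemolymph they restrain short chains of proteases, most of which carry a clip domain and circulate as inactive precursors. In the Toll arm, modSP, a modular protease without a clip domain, acts ahead of grass after recognition of microbial cell walls. The protease psh is instead activated by microbial proteases, and both routes lead to SPE, which cleaves the cytokine Spätzle so that it can bind Toll. In the melanization arm, MP1 and Sp7 (also called MP2) act toward the activation of prophenoloxidase. The fat body, the counterpart of liver and adipose tissue, secretes many of these proteins.

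Thorax tissue of female adults was collected at day 7 after 24 hr of RU486, the drug that switches on a GeneSwitch driver. The control was tubulinGeneSwitch x w1118, the ΔOTC flies were tubulinGeneSwitch x UAS-dOTC, which make a misfolding human ornithine transcarbamylase in mitochondria, and the third library was tubulinGeneSwitch x ND75 RNAi, which lowers a complex I subunit. The control thus came from another cross but also received RU486. The driver is given here as in the labels, while a figure legend of the study names the daughterless driver. Fat body was taken from L3 larvae and from adults of DaGeneSwitch x UAS-dOTC, called wild type, and of the same cross in a PGAM5 null background, each without and with RU486. PGAM5 is a mitochondrial phosphatase. Adults were taken at day 7 and had received RU486 as larvae only. Every fat body animal carried UAS-dOTC, so the effect of RU486 itself and that of ΔOTC cannot be told apart in fat body. Each library pooled 15 animals and each condition had 1 library, so no difference below has a replicate check or a p-value. The interval given with a ratio is the 95% interval for counting error alone. In dissected tissue, fewer cells of a type and less RNA per cell cannot be told apart.

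The libraries differed in depth and in their content of transcripts from other tissues. Estimated depth ran from 2990000 fragments in the ND75 RNAi thorax to 8890000 in wild-type larvae with RU486. ND75 stood at 572 FPKM in the control thorax and at 53.8 FPKM in the knockdown, and Pgam5 at 10.1 to 16.8 FPKM in wild-type and 0 to 0.841 FPKM in PGAM5 null fat body. The adult fat body table carries a header line that says larval and was read as adult from its sheet name. Fat body markers summed to between 62242 and 192975 FPKM in all 8 fat body libraries, and muscle markers to between 8937 and 19700 FPKM in thorax. Single fat body markers shifted between larval libraries, as given with the larval results. Male reproductive tract markers summed to at most 4.85 FPKM in adult libraries and to between 22.8 and 176 FPKM in larvae. Markers of gut, ovary, male reproductive tract, salivary gland and hemocytes varied between libraries and are given beside the results they move with.

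Of the 34 genes, 21 reached 10 FPKM in at least 1 library and 14 reached it in all 11. All 6 proteases were among the 14, as were the serpins Spn27A, Spn28D, Spn1, Spn4, Spn43Ab, nec, Spn77Ba and Spn88Eb. Another 3 serpins, Spn47C, Spn42De and Spn100A, peaked between 1 and 10 FPKM. The last 10 never reached 1 FPKM, with 0.491 FPKM as their highest value: Spn2, Spn3, Spn7, Spn28Da, Spn28Db, Spn53F, Spn75F, Spn77Bb, Spn77Bc and Spn85F. Spn28Da and Spn28Db were listed at 0 in every library. Of the 28 serpins, 8 were thus at 10 FPKM or more everywhere and 10 below 1 FPKM everywhere, and the other 10 lay between.

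**Figure D1:**
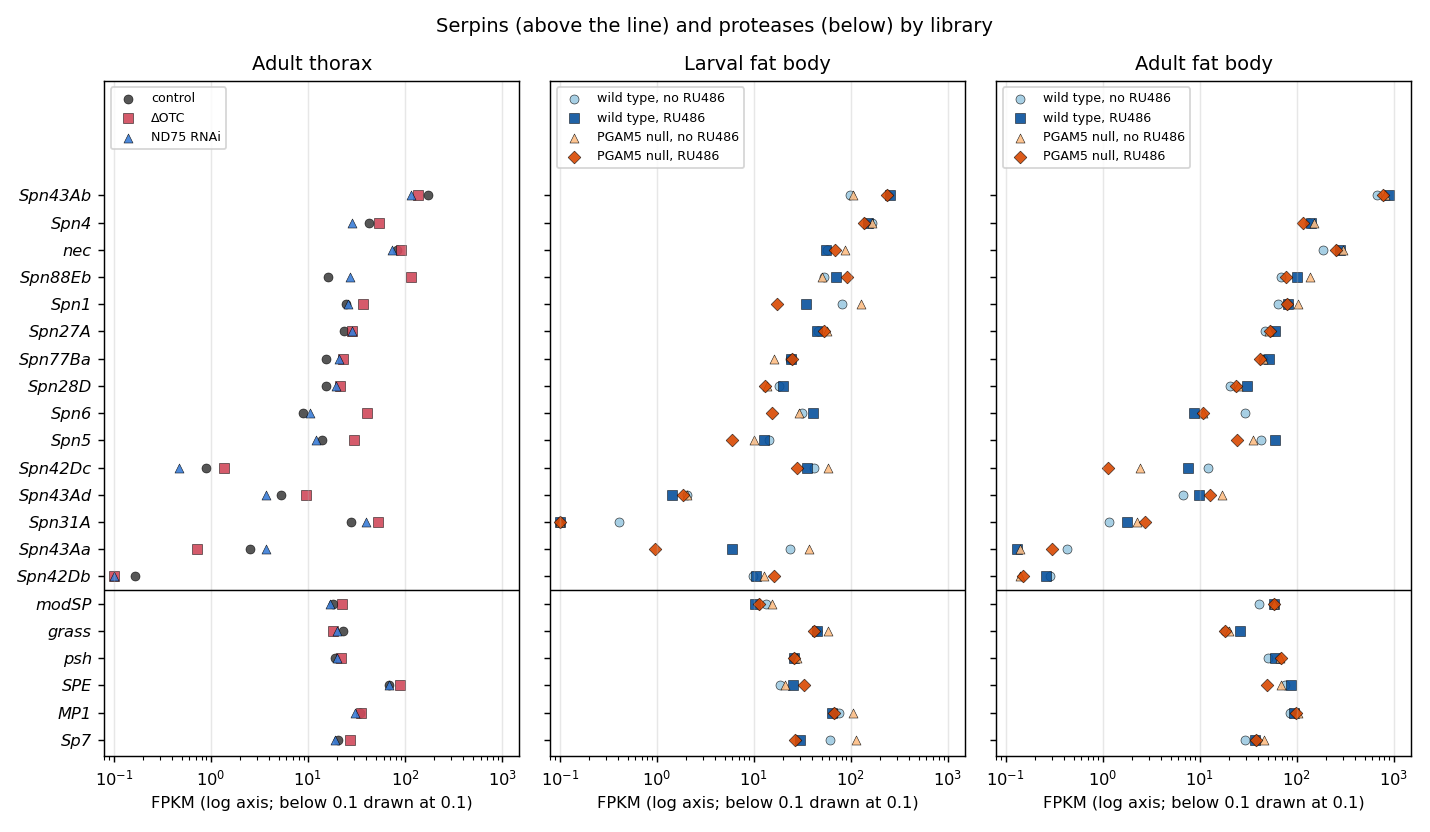
FPKM (log axis) of the 15 serpins and 6 proteases that reached 10 FPKM in any library, one point per library in adult thorax, larval fat body and adult fat body; values below 0.1 are drawn at 0.1. Spn43Ab, at 669 to 899 FPKM in adult fat body, was the highest serpin there, and Spn43Aa and Spn42Db reached 5 FPKM only in larvae.

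Spn43Ab was the most abundant serpin in all 4 adult fat body libraries and in all 3 thorax libraries. It held 47.7% to 52.4% of the summed serpin FPKM in adult fat body and ranked from 146 to 189 among all genes there. In thorax it stood at 171 FPKM in the control, 135 FPKM with ΔOTC and 114 FPKM with ND75 RNAi. Second in adult fat body was nec, the serpin that holds back the psh branch of Toll activation. It ranged from 184 to 300 FPKM there, against 72.7 to 91.1 FPKM in thorax and 55.3 to 86.3 FPKM in larval fat body. Because the tables were normalized separately, such differences between tissues are descriptions of level only.

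The inhibitors assigned to melanization were steadier across tissues than Spn43Ab and nec. Spn27A, which limits prophenoloxidase activation in hemolymph, ranged from 23.6 to 28.5 FPKM in thorax, from 44.6 to 57.1 FPKM in larvae and from 46.5 to 60.0 FPKM in adult fat body. Spn28D, the gene now named Spn28Dc and a restraint on phenoloxidase activity, covered 13.0 to 30.5 FPKM over all libraries. Spn77Ba, which prevents melanization of the tracheae, covered 15.3 to 52.0 FPKM. The highest and lowest values of these genes differed by 2.35 to 3.41 times across all 11 libraries. Those of nec differed by 5.43 times and those of Spn43Ab by 9.23 times. The proteases grass, MP1 and psh were near the melanization inhibitors, at 3.25, 3.44 and 3.60 times. The other proteases, SPE, modSP and Sp7, differed more, at 4.78, 5.69 and 5.99 times. Spn43Aa differed by 283 times, but its lowest value, 0.132 FPKM, rests on 1 estimated fragment.

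Some serpins had most of their expression in one tissue of the series. Spn31A stood at 27.7 to 52.1 FPKM in thorax, at 1.15 to 2.70 FPKM in adult fat body and at 0 to 0.404 FPKM in larval fat body. Spn42Db was seen at 9.77 to 16.0 FPKM in larvae and stayed at or below 0.284 FPKM elsewhere. Spn43Aa ranged from 0.958 to 37.3 FPKM in larvae, from 0.722 to 3.66 FPKM in thorax and from 0.132 to 0.428 FPKM in adult fat body. Spn42Dc ranged from 28.1 to 57.6 FPKM in larvae, from 1.14 to 12.2 FPKM in adult fat body and from 0.464 to 1.37 FPKM in thorax. In Spn31A, Spn42Db and Spn42Dc the range of the tissue with the highest values did not overlap those of the others. The larval range of Spn43Aa overlapped that of thorax. Ranges were also apart for Spn43Ab, nec, psh, modSP and Spn77Ba, highest in adult fat body, and for grass, highest in larvae. How many of all genes have such ranges was not counted.

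Several members are neighbours on the chromosome. Spn4, Spn42Db, Spn42Dc, Spn1 and Spn42De form a cluster on 2R, and Spn43Aa, Spn43Ab, Spn43Ad and nec lie close together on the same arm. On 3R, Spn5 and Spn88Eb are adjacent, and Spn77Ba, Spn77Bb and Spn77Bc follow each other on 3L. Within the first cluster, Spn4, an inhibitor of furin-type proprotein convertases, was at 115 to 164 FPKM in fat body of both stages, whereas its immediate neighbour Spn42Db passed 1 FPKM only in larvae. Spn77Ba was expressed in all libraries, while Spn77Bb and Spn77Bc were not above 0.491 FPKM. Spn1 (now Spn42Dd) and Spn42Dc share 63 bases of exon on 1 strand, SPE and CG18754 share 107, and MP1 overlaps 941 bases of Vps24 on the opposite strand. Like Spn1 and Spn42Dc, SPE and CG18754 lie on 1 strand, so reads of the shared bases may have been divided between such genes. For MP1 and Vps24 this depends on whether strand was used in counting, which is not given in the sources used here.

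Summed over the 28 serpins, expression was 408 to 646 FPKM in thorax, 669 to 776 FPKM in larval fat body and 1328 to 1733 FPKM in adult fat body. The 6 proteases summed to 175 to 213, 201 to 340 and 300 to 364 FPKM. Summed serpin transcripts thus stood at 2.33 to 3.04 times those of these 6 proteases in thorax. The ratio was 2.28 to 3.78 in larval fat body and 4.43 to 4.82 in adult fat body. It depends on which proteases are taken. Another 12 clip proteases, outside the choice by name, summed to 85.4 to 127 FPKM in thorax. They summed to 190 to 397 FPKM in larval and 139 to 208 FPKM in adult fat body. Of the 6 proteases, SPE was the highest in thorax, at 68.9 to 87.7 FPKM, and MP1 in all 4 adult fat body libraries, at 85.1 to 104 FPKM. MP1 also led in 3 of the 4 larval libraries, and Sp7, at 113 FPKM against 105 FPKM for MP1, in PGAM5 null larvae without RU486. In larvae SPE was at 18.4 to 32.6 FPKM, below the range of MP1, which was 64.3 to 105 FPKM.

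The first comparison asked how the genes stood in thorax 24 hr after ΔOTC was switched on. Control thorax held Spn88Eb at 16.0 FPKM, ΔOTC thorax at 115 FPKM and ND75 RNAi thorax at 27.4 FPKM. It was the only member past the study's thresholds for an induced gene, a ratio of at least 3 and a reference value of at least 10 FPKM, with 7.19 times the control level under ΔOTC (interval 5.91 to 8.89). Of the 16 members that reached 10 FPKM in the control, 1 was thus induced, beside 1.02% of all genes that could be called, and 0 were reduced by 2-fold or more, beside 6.66%. Spn88Eb made up 3.5% of the summed serpin FPKM in the control and 17.8% with ΔOTC.

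Next to it on the chromosome, Spn5 (now Spn88Ea), which restrains Toll signaling and is needed for wing expansion, was at 13.8 FPKM in the control, 30.1 FPKM with ΔOTC and 12.2 FPKM with ND75 RNAi. The ΔOTC ratio was 2.18 (interval 1.71 to 2.79), short of the threshold. For Spn6 (now Spn55B) the 3 values were 8.83, 40.9 and 10.5 FPKM. Its ratio under ΔOTC was 4.64 (interval 3.44 to 6.33), but its control level was under 10 FPKM, so it was not among the genes called. Both serpins were high in the ΔOTC library alone.

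Smaller differences under ΔOTC mostly ran upward. Spn31A was at 27.7, 52.1 and 39.3 FPKM in control, ΔOTC and ND75 RNAi thorax, Spn77Ba at 15.3, 23.0 and 20.8 FPKM, and Spn28D at 15.3, 21.6 and 19.5 FPKM. These ratios, 1.88, 1.50 and 1.42, had intervals above 1. Spn1, a regulator of the GNBP3 branch of Toll, was at 24.9, 37.0 and 25.8 FPKM, and Spn4 at 42.1, 54.0 and 28.4 FPKM. Spn43Ab went the other way under ΔOTC with a ratio of 0.788 (interval 0.718 to 0.863). Among the 21 members with at least 1 FPKM in one of both libraries, 18 were higher and 3 lower with ΔOTC, and the median log2 ratio of FPKM + 1 was 0.35, against 0.06 over all genes.

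**Figure D2:**
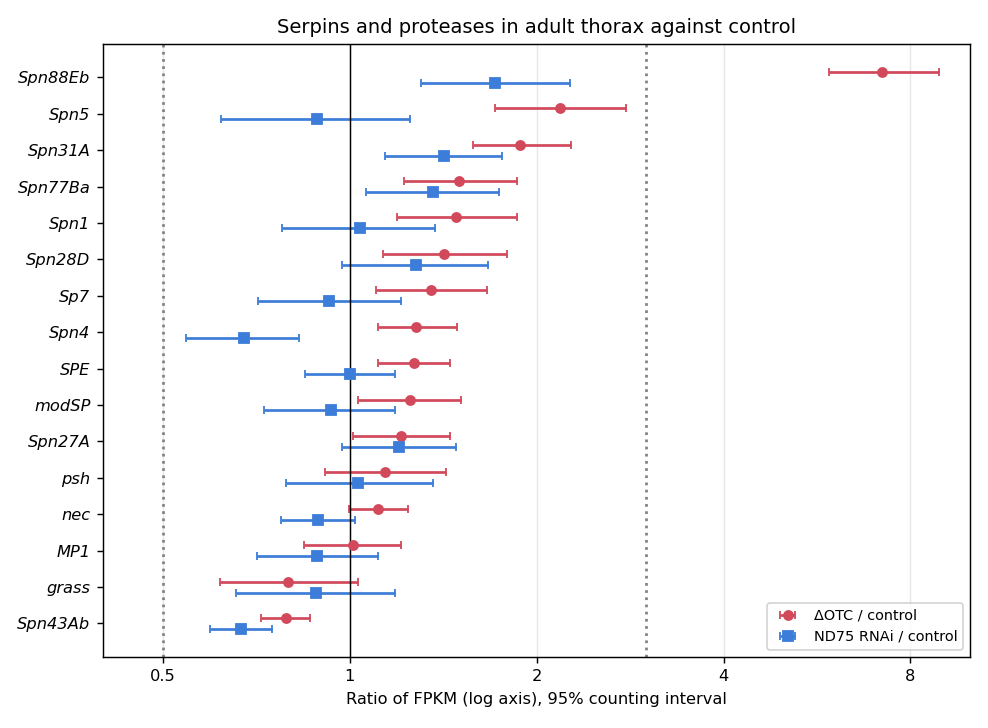
Ratio of FPKM to the control thorax (log axis) for the 16 members at 10 FPKM or more in the control, with ΔOTC as circles and ND75 RNAi as squares; bars are 95% counting intervals, and dotted lines mark a ratio of 3 and a ratio of 0.5. Spn88Eb lies at 7.19 under ΔOTC and at 1.71 under ND75 RNAi, and no other member passes a dotted line.

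The proteases themselves moved little in thorax. SPE was at 68.9, 87.7 and 69.0 FPKM in control, ΔOTC and ND75 RNAi libraries, Sp7 at 20.3, 27.4 and 18.8 FPKM, and modSP at 18.1, 22.5 and 16.8 FPKM. With ΔOTC these 3 were higher by 1.27, 1.35 and 1.25 times, with intervals above 1. The values of psh were 19.1, 21.8 and 19.7 FPKM, those of grass 22.8, 18.2 and 20.1 FPKM, and those of MP1 34.5, 34.9 and 30.6 FPKM. Their ΔOTC intervals all included 1, as did that of nec, at 82.0, 91.1 and 72.7 FPKM. That of Spn27A, at 23.6, 28.5 and 28.4 FPKM, did not, with a ratio of 1.21 (interval 1.01 to 1.45). Scaled to a common median, the ΔOTC intervals of modSP (0.976 to 1.42) and Spn27A (0.953 to 1.37) included 1. That of grass (0.582 to 0.969) then lay below 1.

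With ND75 RNAi no member was called. The induced count was 0 of 16, beside 0.255% of all genes, and the reduced count 0 of 16, beside 8.64%. Spn88Eb had the highest ratio of those 16, 1.71 (interval 1.30 to 2.26), followed by Spn31A at 1.42 (1.14 to 1.76) and Spn77Ba at 1.36 (1.06 to 1.74). Spn43Ab was lower at 0.667 (0.594 to 0.749), and Spn4 at 0.675 (0.544 to 0.829). All 6 protease intervals included 1. Among 20 members, 10 were higher and 10 lower, with a median log2 ratio of -0.05 against -0.17 over all genes. The sign of this median turned under median scaling, at 0.08, under upper quartile scaling, at 0.23, and over the serpins alone, at 0.13. Both thorax comparisons share the 1 control library, so their values are given side by side and no overlap is drawn from them.

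Other genes of these pathways were listed beside the members. Of 9 Toll target genes, all 9 could be called with ΔOTC, of which 2 were induced and 1 reduced, and 0 were called with ND75 RNAi. Mtk, which encodes the antifungal peptide Metchnikowin, was at 123 FPKM in the control, 2028 FPKM with ΔOTC and 348 FPKM with ND75 RNAi. Among Toll signaling genes, 0 of 6 were called in either comparison, and spz, the gene for Spätzle, was at 11.6, 27.3 and 20.7 FPKM. Of 4 melanization genes, 2 were reduced with ΔOTC, including ple, the tyrosine hydroxylase that feeds melanin synthesis, at 16.4 and 3.25 FPKM. None of the 3 other clip-domain proteases that could be called was induced or reduced in either comparison.

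Markers of other cell types moved in the same libraries. Hemocyte markers, 7 genes in all, summed to 84.0 FPKM in control, 165 FPKM in ΔOTC and 101 FPKM in ND75 RNAi thorax. Of the 6 that were at 1 FPKM or more, 5 were higher with ΔOTC, with a median log2 ratio of 1.02, and none was at 0 in any thorax library. Gut markers summed to 1600, 246 and 94.8 FPKM and ovary markers to 284, 22.6 and 34.8 FPKM. Fat body markers summed to 17345, 16316 and 14138 FPKM. Muscle markers summed to 11468, 8937 and 19700 FPKM, and with ND75 RNAi 8 of 9 were higher, with a median log2 ratio of 0.60. The part of these tissues in the values of Spn88Eb, Spn6 and Spn5 with ΔOTC, or of Spn43Ab and Spn4 with ND75 RNAi, was not tested.

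In larval fat body 3 genes were past the threshold for reduced genes with RU486 in both genotypes. Spn43Aa was at 23.7 FPKM without and 5.99 FPKM with RU486 in wild-type larvae, and at 37.3 and 0.958 FPKM in PGAM5 null larvae, the last value resting on 4 fragments. Spn1 was at 81.3 and 34.1 FPKM in wild type and at 127 and 17.5 FPKM in PGAM5 null. Sp7 was at 60.4 and 30.1 FPKM in wild type and at 113 and 26.7 FPKM in PGAM5 null. In each of these genes both libraries with RU486 were below both without it.

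In wild-type larvae the ratios were 0.253 for Spn43Aa (interval 0.184 to 0.342), 0.419 for Spn1 (0.362 to 0.483) and 0.498 for Sp7 (0.439 to 0.566). These 3 were the reduced members of 18 that could be called, 16.7%, beside 30.5% of all genes, and 0 members were induced, beside 0.861%. The share of reduced members thus did not exceed the background. Sp7 lay next to the threshold, and its ratio was 0.574 when libraries were scaled to a common median. Under upper quartile scaling Spn1 at 0.658 and Sp7 at 0.782 were no longer reduced, and Spn43Aa, at 0.396, still was.

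In PGAM5 null larvae the same 3 genes and Spn42Dc were reduced, 4 of 19 or 21.1%, beside 17.5% of all genes. The ratios were 0.0257 for Spn43Aa (interval 0.00668 to 0.0641), 0.138 for Spn1 (0.106 to 0.177), 0.237 for Sp7 (0.200 to 0.281) and 0.487 for Spn42Dc (0.405 to 0.586). Spn42Dc was at 41.4 and 35.2 FPKM in wild type and at 57.6 and 28.1 FPKM in PGAM5 null, and its ratio in PGAM5 null was 0.563 under median and 0.631 under upper quartile scaling, past the threshold no longer. No member was induced, beside 1.55% of all genes. For Spn43Aa, Spn1 and Sp7 the ratio was lower in PGAM5 null than in wild type, with intervals that did not overlap, a difference that includes no spread between animals.

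Salivary gland and gut markers followed the same order of libraries. The 6 salivary gland glue genes summed to 135167 and 59440 FPKM in wild-type larvae without and with RU486, and to 168872 and 38057 FPKM in PGAM5 null larvae. With RU486, 4 of these 6 were reduced in wild type and 5 of 6 in PGAM5 null, and none of the 6 was at 0 in any larval library. The 11 gut markers summed to 3059, 1826, 3808 and 111 FPKM in the same order. Of the 19 members that reached 10 FPKM in a larval library, 5 stood in that same order of 4 libraries. They were Spn43Aa, Spn1, Sp7, Spn42Dc and Spn4. The share of all genes in that order was not counted, so the count cannot be read as particular to the members. Male reproductive tract markers, 9 genes of which 4 or 5 were at 0 in each larval library, summed to 176 and 22.8 FPKM without and with RU486 in wild type and to 145 and 120 FPKM in PGAM5 null. All 3 that could be called were reduced in wild type and 0 of 3 in PGAM5 null. The 9 fat body markers summed to 136688 and 111812 FPKM without and with RU486 in wild type. In PGAM5 null they summed to 147459 and 192975 FPKM. Without RU486 the glue gene sum was thus close to that sum in wild type and above it in PGAM5 null. Of these markers Lsp1beta was at 29917 FPKM without and 0 FPKM with RU486 in wild type. Fbp1 was at 31342 and 10804 FPKM in PGAM5 null. Of those at 1 FPKM or more, 4 of 7 were higher with RU486 in wild type and 6 of 8 in PGAM5 null. The part of salivary gland, gut, fat body or male reproductive tissue in the values of the larval members was not tested.

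**Figure D3:**
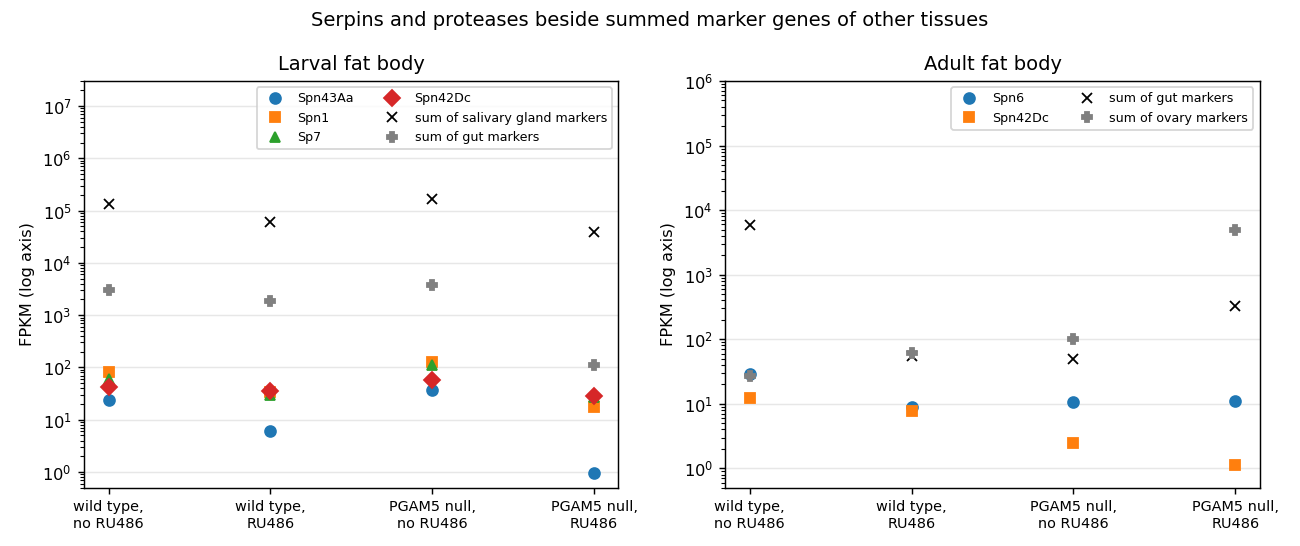
FPKM (log axis) in the 4 larval and 4 adult fat body libraries for members of the family and for summed marker genes of other tissues. In larvae Spn43Aa, Spn1, Sp7 and Spn42Dc stand in the order of the salivary gland and gut sums, and in adults the highest values of Spn6, 29.2 FPKM, and of Spn42Dc, 12.2 FPKM, are in the library where gut markers sum to 5901 FPKM.

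Spn43Ab was higher with RU486 in larvae of both genotypes. It was at 97.4 FPKM without and 252 FPKM with RU486 in wild type, and at 106 and 235 FPKM in PGAM5 null. The ratios, 2.58 (interval 2.38 to 2.81) and 2.22 (2.02 to 2.44), did not reach 3. Under upper quartile scaling the wild-type ratio was 4.05, past that threshold, and the PGAM5 null ratio 2.88. Both libraries with RU486 were far above both without it, and the share of Spn43Ab in the serpin sum was 33.2% and 33.0% with RU486 against 14.6% and 13.7% without. With RU486 Spn43Ab was the most abundant serpin of larvae, and without it Spn4 was.

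Other larval serpins showed smaller differences. Spn88Eb was at 52.4 and 70.8 FPKM without and with RU486 in wild type and at 49.9 and 91.9 FPKM in PGAM5 null, with ratios of 1.35 (interval 1.20 to 1.53) and 1.84 (1.60 to 2.13). Spn77Ba was at 23.5 and 24.01 FPKM in wild type and at 16.0 and 24.9 FPKM in PGAM5 null. Spn6 was at 31.4 and 40.4 FPKM in wild type and at 28.9 and 15.3 FPKM in PGAM5 null, the only member at 10 FPKM or more whose intervals lay on opposite sides of 1 in the 2 genotypes. Spn5 was at 14.4 and 12.8 FPKM in wild type and at 10.01 and 5.93 FPKM in PGAM5 null.

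For Spn4, Spn27A, Spn28D, nec and Spn42Db the highest and lowest larval values differed by 1.20 to 1.64 times. The values of Spn4 were 163 and 149 FPKM without and with RU486 in wild type and 164 and 136 FPKM in PGAM5 null. Spn27A was at 45.7, 44.6, 57.1 and 53.3 FPKM and Spn28D at 18.1, 20.0, 13.5 and 13.0 FPKM in the same order. Those of nec were 56.8, 55.3, 86.3 and 68.9 FPKM, and those of Spn42Db 9.77, 10.4, 12.8 and 16.0 FPKM. For Spn27A and Spn28D the intervals with RU486 included 1 in both genotypes. Below the reference minimum, Spn47C, singled out after its values were seen, was at 4.81 FPKM without and 0.496 FPKM with RU486 in wild type and at 4.72 and 3.39 FPKM in PGAM5 null. Its wild-type ratio was 0.103 (interval 0.0434 to 0.224). Spn43Ad stayed between 1.44 and 2.06 FPKM, and Spn100A and Spn42De at or below 2.60 FPKM.

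Among larval proteases, SPE was the one with higher values under RU486 in both genotypes, at 18.4 and 25.4 FPKM in wild type and at 20.9 and 32.6 FPKM in PGAM5 null. The ratios were 1.38 and 1.56, with lower bounds of 1.11 and 1.22. MP1 was at 75.1 and 64.3 FPKM in wild type and at 105 and 67.0 FPKM in PGAM5 null, and modSP at 13.4, 10.3, 15.3 and 11.2 FPKM in that order. Both had intervals below 1 in each genotype, although in wild type their ratios of 0.856 and 0.770 turned to 1.34 and 1.21 under upper quartile scaling. The values of grass were 44.3 and 44.8 FPKM in wild type and 58.5 and 42.1 FPKM in PGAM5 null, and those of psh 26.0, 25.6, 28.0 and 26.0 FPKM. The summed melanization proteases were at 135 and 94.4 FPKM in wild type and at 218 and 93.8 FPKM in PGAM5 null, whereas the 4 Toll cascade proteases summed to 102 and 106 FPKM and to 123 and 112 FPKM.

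**Figure D4:**
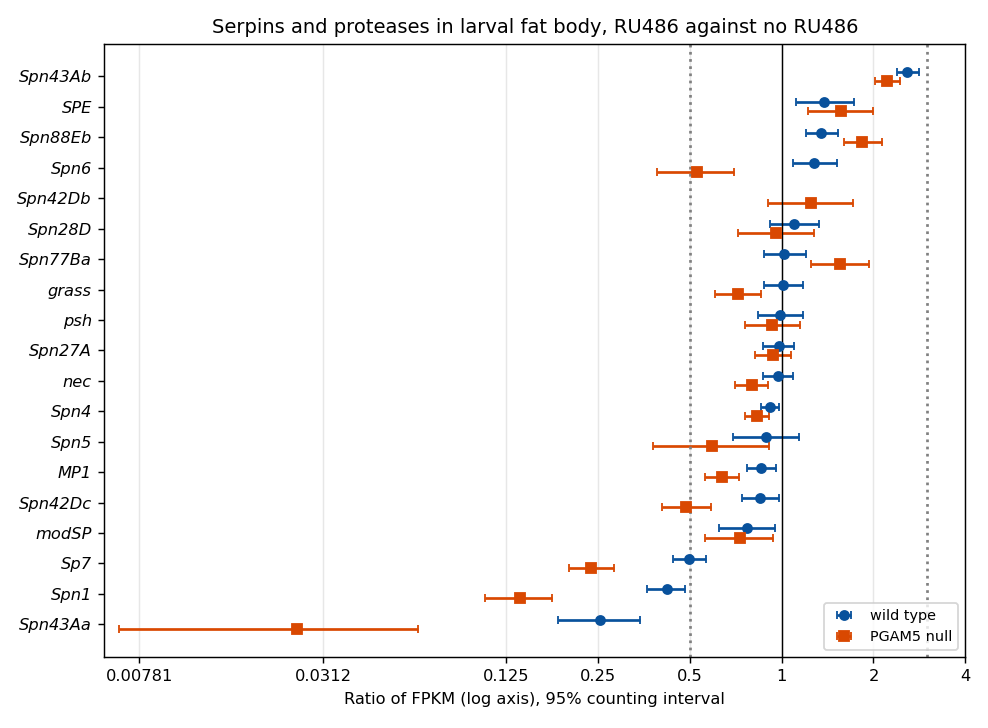
Ratio of FPKM with RU486 to that without it (log axis) in larval fat body, for wild type as circles and PGAM5 null as squares, with 95% counting intervals and dotted lines at ratios of 3 and 0.5. Spn43Ab is at the top with 2.58 and 2.22, and Spn43Aa is at the bottom with 0.253 and 0.0257.

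As a group, 8 of 22 larval members were higher and 14 lower with RU486 in wild type, with a median log2 ratio of -0.09 beside -0.50 over all genes. In PGAM5 null 5 were higher and 17 lower, with a median of -0.35 beside -0.26. Scaling the libraries to a common median added 0.20 and 0.21 to every log2 ratio, which turned the median of the members in wild type to 0.12. The sign of that median therefore differed between the scalings.

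Toll target genes of the same larvae were called in both genotypes. In wild type, 4 of 5 target genes were reduced with RU486 and 1, Mtk, was induced. In PGAM5 null, 4 of 6 were induced and 0 reduced. IM3, an immune-induced peptide gene, was at 47.0 and 1.84 FPKM in wild type and at 59.5 and 462 FPKM in PGAM5 null. Among the Toll signaling genes 0 of 11 were called in wild type and 2 of 10 were reduced in PGAM5 null, the kinase gene pll at 13.3 and 5.56 FPKM and the clip protease gene spirit at 143 and 63.2 FPKM. Of the other clip proteases, which include spirit, 0 of 4 were called in wild type and 2 of 4 were reduced in PGAM5 null. In the melanization list yellow-f, an enzyme of melanin synthesis, was the 1 of 3 reduced genes in each genotype, at 123 and 49.2 FPKM and at 181 and 50.7 FPKM.

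Without RU486, larval members differed by less than 2-fold between the genotypes wherever they could be called. Of the 18, 8 had intervals above 1 and 3 below. Such intervals were not counted over all genes, so no background share stands beside these counts. No member was called between PGAM5 null and wild type, 0 of 18, beside 0.536% of all genes induced and 5.09% reduced. The highest ratios were 1.87 for Sp7 (interval 1.69 to 2.07), 1.58 for Spn43Aa (1.29 to 1.94), 1.56 for Spn1 (1.39 to 1.74) and 1.52 for nec (1.36 to 1.71). The lowest were 0.684 for Spn77Ba (0.561 to 0.830) and 0.697 for Spn5 (0.516 to 0.933). All 6 proteases were higher in PGAM5 null, 3 of them with intervals above 1. Over 22 members the median log2 ratio was 0.18, with -0.17 over all genes. Of the pathway lists, 1 gene was called, the clip protease gene CG11313 at 192 FPKM in wild type and 73.1 FPKM in PGAM5 null. This comparison shares its wild-type library with the RU486 comparison in wild type and its PGAM5 null library with that in PGAM5 null.

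In adult fat body, at day 7 after RU486 in the larval stage, Spn6 was the only member called in wild type. It was at 29.2 FPKM without and 8.77 FPKM with RU486, and at 10.7 and 10.9 FPKM in PGAM5 null. The ratio in wild type was 0.301 (interval 0.225 to 0.394), and that in PGAM5 null 1.01 (0.728 to 1.40). The wild-type library without RU486 thus stood alone, and the other 3 lay within 8.77 to 10.9 FPKM. Of the 17 members that could be called in wild type, 1 was reduced, beside 9.01% of all genes, and 0 were induced, beside 0.319%. In PGAM5 null 0 of 17 were called, beside 0.399% induced and 4.77% reduced.

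Spn42Dc was also highest in the wild-type library without RU486. It was at 12.2 FPKM there, 7.59 FPKM with RU486, and 2.43 and 1.14 FPKM in PGAM5 null. Between PGAM5 null and wild-type adults without RU486, Spn42Dc had a ratio of 0.199 (interval 0.120 to 0.311) and Spn6 of 0.367 (0.281 to 0.477). These 2 were the reduced members of 17, beside 14.9% of all genes, and 0 were induced, beside 0.120%.

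That wild-type library without RU486 carried far more gut transcripts than the others. Its 11 gut markers, genes of digestive enzymes for the most part, summed to 5901 FPKM, against 55.3 FPKM in wild type with RU486, 49.9 FPKM in PGAM5 null without it and 330 FPKM in PGAM5 null with it. All 10 gut markers that could be called were reduced both in wild type with RU486 and in PGAM5 null without RU486. Of the 11, 1 was at 0 in wild type with RU486 and none in the other adult libraries. Ovary markers were high in another library, with sums of 27.1, 61.1, 99.2 and 4951 FPKM in the same order, the last being PGAM5 null with RU486. The part of gut or ovary tissue in the adult values of Spn6, Spn42Dc or the other members was not tested.

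Apart from Spn6, the members at 10 FPKM or more in the adult reference library differed by less than 2-fold with RU486. For 7 of them the intervals lay on opposite sides of 1 in the 2 genotypes. The share of all genes with such opposite intervals was not computed. The values of nec were 184 FPKM without and 279 FPKM with RU486 in wild type and 300 and 255 FPKM in PGAM5 null. Spn88Eb was at 68.3 and 100 FPKM in wild type and at 138 and 77.3 FPKM in PGAM5 null. Spn5 was at 43.2 and 59.4 FPKM in wild type and at 35.7 and 24.4 FPKM in PGAM5 null. For nec and Spn88Eb the wild-type library without RU486 was the lowest of the 4 and PGAM5 null without RU486 the highest, so the 2 genotypes started from different levels.

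In ratios, nec was at 1.52 (interval 1.43 to 1.61) in wild type and 0.851 (0.805 to 0.899) in PGAM5 null, Spn88Eb at 1.47 (1.32 to 1.63) and 0.559 (0.506 to 0.618), and Spn5 at 1.38 (1.21 to 1.57) and 0.684 (0.570 to 0.817). Over 21 members 18 were higher and 3 lower with RU486 in wild type, with a median log2 ratio of 0.35 beside -0.07 over all genes. Over 20 members in PGAM5 null 4 were higher and 16 lower, with a median of -0.15 beside 0.01. None of the 17 ratios in PGAM5 null had an interval wholly above 1, and such intervals were not counted over all genes. Whether the 2 genotypes differed could not be tested with 1 library each.

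**Figure D5:**
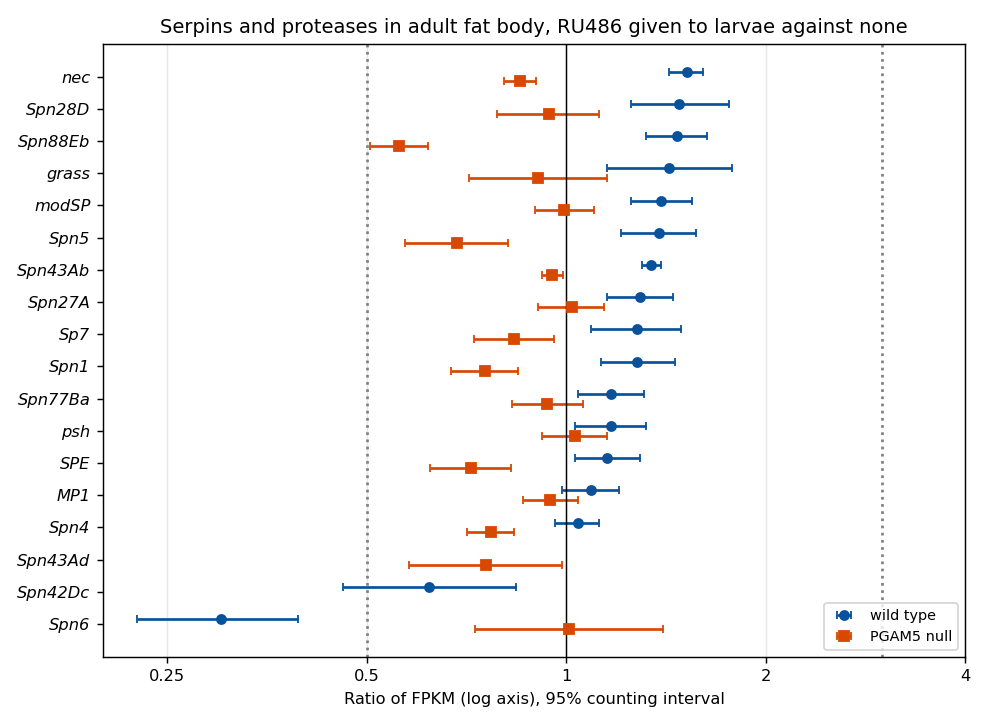
Ratio of FPKM with RU486 given to larvae to that without it (log axis) in adult fat body, wild type as circles and PGAM5 null as squares, with 95% counting intervals and dotted lines at ratios of 3 and 0.5. In wild type nec lies highest at 1.52 and Spn6 lowest at 0.301, and in PGAM5 null Spn88Eb lies lowest at 0.559.

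Further adult serpins followed with smaller differences. Spn43Ab was at 669 and 899 FPKM without and with RU486 in wild type and at 808 and 769 FPKM in PGAM5 null. Spn1 was at 63.9 and 81.8 FPKM in wild type and at 104 and 78.7 FPKM in PGAM5 null, and Spn43Ad at 6.72, 9.70, 16.9 and 12.8 FPKM in that order. Again the wild-type library without RU486 was the lowest of the 4 for all 3 genes. Spn4 was at 133, 139, 150 and 115 FPKM, Spn27A at 46.5, 60.0, 52.1 and 52.9 FPKM, Spn28D at 20.6, 30.5, 24.8 and 23.4 FPKM, and Spn77Ba at 44.6, 52.0, 44.4 and 41.6 FPKM in the same order. For Spn27A, Spn28D and Spn77Ba the interval lay above 1 in wild type and included 1 in PGAM5 null.

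All 6 adult proteases were higher with RU486 in wild type, 5 of them with intervals above 1, but none reached 1.5 times. Such intervals were not counted over all genes. The reference of the wild-type ratios is the library with gut markers at 5901 FPKM, and the part of gut tissue was not tested. SPE was at 75.7 and 87.1 FPKM in wild type and at 69.0 and 49.5 FPKM in PGAM5 null, and Sp7 at 28.9 and 36.9 FPKM and at 45.5 and 38.0 FPKM. The values of modSP were 41.2 and 57.5 FPKM in wild type and 58.7 and 58.2 FPKM in PGAM5 null, and those of psh 50.9, 59.4, 66.8 and 68.8 FPKM. Those of grass were 18.1, 25.9, 19.8 and 18.0 FPKM, and those of MP1 85.1, 92.7, 104 and 98.3 FPKM. In PGAM5 null only SPE, with a ratio of 0.718 (interval 0.622 to 0.825), and Sp7, with 0.834 (0.725 to 0.957), had intervals below 1.

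Between PGAM5 null and wild-type adults without RU486, the members other than Spn6 and Spn42Dc were mostly higher. Spn88Eb had a ratio of 2.02 (interval 1.83 to 2.24), Spn1 of 1.64 (1.45 to 1.85), nec of 1.63 (1.54 to 1.73), Sp7 of 1.58 (1.36 to 1.83) and modSP of 1.42 (1.28 to 1.58). Spn43Ad, at 6.72 FPKM in wild type, was below the reference minimum and had 2.51 times that level in PGAM5 null (1.82 to 3.49). Of 21 members 14 were higher and 7 lower, with a median log2 ratio of 0.26 beside -0.10 over all genes. The wild-type library without RU486, with its gut transcripts, is the reference here as well as in the wild-type RU486 comparison.

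Few genes of the wider pathway lists were called in adults. Of the Toll signaling genes 0 of 11 were called in wild type with RU486 and 1 of 11, spirit at 24.6 and 11.8 FPKM, was reduced in PGAM5 null. Of the Toll target genes 0 of 8 and 0 of 9 were called with RU486, and 1 of 8, Drs, the gene of the antifungal peptide Drosomycin, was reduced between PGAM5 null and wild type without RU486, at 607 and 1818 FPKM. Of 4 melanization genes 0 were called in any adult comparison, and among other clip proteases spirit was again the only one, 1 of 5 in PGAM5 null. Hemocyte markers summed to 33.7, 26.4, 46.3 and 50.1 FPKM in the 4 adult libraries and to between 15.6 and 25.3 FPKM in larvae.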

How the data were processed

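RNA of dissected thorax and fat body was made into TruSeq libraries, and the authors mapped the reads to Drosophila genome release 5.2 and deposited FPKM values made with the Bowtie, TopHat and Cufflinks tools named in their processing notes, with versions not given in the sources used here. The FPKM values were used as deposited, with 8 pairs of libraries compared. Thresholds follow the study's figure legends: a reference value of at least 10 FPKM, a ratio of at least 3 for induced genes, and a level 2-fold or more below the reference for reduced genes. Medians use log2 ratios with a pseudocount of 1 over genes at 1 FPKM or more in either library. With 1 library per condition no test across genes was run.

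Fragment numbers came from the spacing of low FPKM values in 8091 genes with 1 transcript in Ensembl release 115. That release was used for names, transcript lengths, neighbour order, strand and exon overlap only. Within 0.1 of a whole number lay 81.0% to 84.7% of genes below 5.5 fragments. At 10 FPKM a transcript of 1 kb rests on 25.2 to 72.9 fragments. From these came exact conditional binomial intervals at 95%, which cover counting error only. Counts of intervals that exclude 1 were made for members and not for all genes. A value of 0 allows up to 3 fragments. The procedure was tested on simulated data.

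The members and lists were chosen with earlier results of these data known. Members at 10 FPKM or more in a library of a table are given in every library of it, and other pathway genes by counts with up to 2 examples per list and comparison, those with the largest log2 ratio. Of the 34 symbols, 33 were matched by identifier and 1, Spn4 (now Spn42Da), by synonym. The genes spirit and Hayan (listed as CG6361) are in more than 1 list. Of the lists, 15 of 16 Toll signaling, 9 of 10 Toll target, 7 of 8 melanization and 12 of 12 clip protease genes were matched, as were 9 of 10 fat body and 11 of 12 gut markers and all markers of other tissues. Alternatives varied the reference filter, thresholds, pseudocount and scaling. Computations ran in Python 3.11.15 with scipy 1.17.1, numpy 2.4.6 and pandas 2.3.3, and plots in matplotlib 3.10.9.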

Additional observations from a re-analysis of the deposited data

Results flagged for a closer look

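The genes named here had ratios with RU486 that lay on opposite sides of 1, each with its counting interval, in 2 genotypes or 2 stages. With 1 library per condition the difference was not tested, and how many of all genes show such a pattern was not counted.

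In larvae, Spn6 was at 1.28 times its level without RU486 in wild type and at 0.528 times in PGAM5 null. In adults, wild type and PGAM5 null had ratios of 1.15 and 0.718 for SPE, 1.28 and 0.834 for Sp7, 1.28 and 0.753 for Spn1, 1.34 and 0.952 for Spn43Ab, 1.38 and 0.684 for Spn5, 1.47 and 0.559 for Spn88Eb, and 1.52 and 0.851 for nec. Gut markers summed to 5901 FPKM in wild-type adults without RU486 and to 55.3 FPKM with it, and ovary markers to 4951 FPKM in PGAM5 null adults with RU486, and their part in these ratios was not tested.

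Between stages of wild type, larvae and adults had ratios of 0.498 and 1.28 for Sp7, 0.419 and 1.28 for Spn1, 1.28 and 0.301 for Spn6, and 0.770 and 1.39 for modSP. Between stages of PGAM5 null the ratios were 1.56 and 0.718 for SPE, 2.22 and 0.952 for Spn43Ab, and 1.84 and 0.559 for Spn88Eb. Once libraries were scaled to a common median, the intervals no longer lay on opposite sides for Spn43Ab, in either pair, or for modSP.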

How the results depend on the processing

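No paired analysis was possible because each condition had 1 library, and for the same reason no library could be left out. Without the filter on the reference level, 2 members were induced with ΔOTC, and the reduced counts were 3 with ΔOTC, 5 with ND75 RNAi, 9 in wild-type larvae, 8 in PGAM5 null larvae, 5 in wild-type adults, 3 in PGAM5 null adults, 4 between larval genotypes and 8 between adult genotypes. Calls added this way include genes with almost no fragments. With ND75 RNAi, Spn2, Spn42Db, Spn42De and Spn53F had 1 or 2 estimated fragments in the control against 0. For Spn100A, Spn53F and Spn77Bc, adult wild type had 1 without RU486 against 0 with it. The share of all genes called was not computed without this filter or at the thresholds that follow. With a 2-fold threshold the induced counts were 2 with ΔOTC and 1 each in wild-type larvae, PGAM5 null larvae and between adult genotypes. With a 3-fold threshold for reduced genes, Spn43Aa remained in wild-type larvae, and Spn43Aa, Spn1 and Sp7 in PGAM5 null larvae. Spn6 remained in wild-type adults and Spn42Dc between adult genotypes.

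Scaling moved the median log2 ratios most. Under scaling to a common median it was 0.08 with ND75 RNAi and 0.12 in wild-type larvae, both turned from negative. Under upper quartile scaling those were 0.23 and 0.56, and the median was -0.01 in PGAM5 null larvae, 0.55 in wild-type adults and 0.50 between adult genotypes, with 1 member induced (Spn43Ab) and 1 reduced (Spn43Aa) in wild-type larvae. Over serpins alone the ND75 RNAi median was 0.13. Of 138 single ratios, 14 moved beyond their counting interval under median scaling and 61 under upper quartile scaling, and 0 changed direction among called values. The cause was not tested. The value of Spn43Aa in PGAM5 null larvae with RU486 rests on 4 fragments, and for the 10 serpins below 1 FPKM throughout no difference was detectable at this depth.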
